A study of Mus musculus with 3 samples.

Results

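The distal GR peaks outside simple tandem repeats were 368 of the 3087 peaks called after chromatin immunoprecipitation of the glucocorticoid receptor (GR, encoded by Nr3c1) from knockout muscle. A peak belonged to the set when 2 conditions held. Perfect tandem tracts with a unit of 1 to 6 bp, at least 3 units and at least 8 bp covered under 50% of its bases. Its summit lay more than 5000 bp from every protein-coding transcript start of GENCODE vM21. A further 2405 distal peaks lay on such tandem repeats, and 314 peaks lay within 5000 bp of a start. The nuclei came from skeletal muscle of 10 to 12 week old C57/Bl6J animals. The GR library was made from GR(i)skm-/- mice with an antibody raised against the C-terminal part of the receptor, so the list shows what this antibody recovered in muscle labelled as lacking the receptor. The H3K27me3 library came from WT mice of the same strain and age, and an input library of GR(i)skm-/- muscle was not analysed here. The driver of the deletion, any hormone treatment and the number of animals are not given in the sources used here. Each group had 1 library, so no value has a replicate error. A GR library of WT muscle was not analysed here.

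The glucocorticoid receptor is a ligand-activated transcription factor. It binds DNA as a dimer at the glucocorticoid response element, which joins 2 copies of AGAACA that face each other across 3 bases. In skeletal muscle it is known for its part in protein breakdown and metabolism during fasting and stress. Most peaks of this list lay on simple repeats, and the 368 peaks described here were the distal ones that this definition left over.

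Nearly all of the 368 peaks still lay on repeated sequence. In 324 of them (88.04%, exact Clopper-Pearson 95% interval 84.3 to 91.2%) the sequence was a tandem repeat that the rule had not counted, because its copies were interrupted or its unit was longer than 6 bp. A further 28 peaks (7.61%, 5.12 to 10.8%) lay on sequence of RNA genes, with 15 on 5S ribosomal RNA, 7 on tRNA genes and 6 on 18S ribosomal RNA. Sequence that matched satellite arrays elsewhere in the genome held 4 peaks. Another 11 peaks lay on sequence that was not soft-masked and had a high local background, and 1 peak fell in none of these families. The intervals cover counting error only.

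The families are shown first by the sequences themselves, read from GRCm38 (mm10). The member of highest fold enrichment lay on chr7:77032481-77032637, in an intron of Agbl1, a cytosolic carboxypeptidase. Its sequence is shown because it held no tract that the rule counts, although it repeats a unit of 7 bp almost without error. Its best shift onto itself was 21 bp, and capitals mark the first copy of that length. The member in an intron of Slc7a15, a solute carrier, on chr12:8530817-8530894 had a best shift of 7 bp. The member nearest to Steap3, a metalloreductase of iron uptake, lay on chr1:120283586-120283720 with a best shift of 40 bp, and the one nearest to Med13l, a Mediator subunit, lay on chr5:118916507-118916581 with a best shift of 14 bp. Capitals again mark the first copy.
Agbl1 intron: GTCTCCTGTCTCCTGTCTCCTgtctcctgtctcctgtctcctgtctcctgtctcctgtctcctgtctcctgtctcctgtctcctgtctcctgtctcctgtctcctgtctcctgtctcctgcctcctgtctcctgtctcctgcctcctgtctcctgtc
Slc7a15 intron: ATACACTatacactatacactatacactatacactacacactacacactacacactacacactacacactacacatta
near Steap3: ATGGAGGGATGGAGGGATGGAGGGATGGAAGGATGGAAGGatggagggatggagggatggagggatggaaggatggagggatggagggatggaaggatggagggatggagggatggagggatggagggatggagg
near Med13l: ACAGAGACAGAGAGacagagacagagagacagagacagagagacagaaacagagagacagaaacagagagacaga

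In the interrupted short-unit repeats, capitals mark the perfect tracts that the rule counted, and the lower case letters between them are interruptions of the same pattern. The member in an intron of Adcy1, an adenylate cyclase, lay on chr11:7106199-7106444, and the tracts covered 22.8% of it. The member nearest to Rybp, a Polycomb subunit, lay on chr6:100218379-100218457 with a cover of 41.8%.
Adcy1 intron: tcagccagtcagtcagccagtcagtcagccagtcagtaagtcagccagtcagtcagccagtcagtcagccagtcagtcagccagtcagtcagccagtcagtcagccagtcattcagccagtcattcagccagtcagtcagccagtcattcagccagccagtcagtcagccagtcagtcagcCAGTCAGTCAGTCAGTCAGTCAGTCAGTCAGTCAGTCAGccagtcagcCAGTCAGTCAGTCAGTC
near Rybp: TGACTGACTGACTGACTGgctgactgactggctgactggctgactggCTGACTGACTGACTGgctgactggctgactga

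5S ribosomal RNA, a structural RNA of the large ribosomal subunit, and tRNAs are made by RNA polymerase III from promoters that lie inside the transcribed sequence. The first 3 lines are members on 5S sequence, with capitals over the longest stretch identical to the reference gene Rn5s. They lay on chr11:74319826-74319908 (n-R5s71, plus strand), chr13:58439851-58439930 (minus strand, at no annotated locus) and chrY:991642-991700 (n-R5s1, minus strand). The last is a member on a tRNA gene on chr11:69110929-69110999 (n-TScga3, serine, anticodon CGA, plus strand). In it capitals mark GGTTCGA, the core of the B box of tRNA promoters.
n-R5s71: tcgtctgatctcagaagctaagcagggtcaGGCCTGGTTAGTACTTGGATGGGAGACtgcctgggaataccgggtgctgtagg
5S copy on chromosome 13: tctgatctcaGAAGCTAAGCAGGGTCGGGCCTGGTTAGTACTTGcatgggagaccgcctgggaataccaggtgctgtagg
n-R5s1: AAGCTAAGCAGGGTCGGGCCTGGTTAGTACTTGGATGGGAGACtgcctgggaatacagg
n-TScga3: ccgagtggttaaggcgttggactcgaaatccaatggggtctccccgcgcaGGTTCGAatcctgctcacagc

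The next sequences stand for the members with a high local background. An 18S member lay on chr17:39846865-39846938 in Rn18s-rs5, and 2 members without soft-masking lay on chr2:22744850-22744911 and, in an intron of Cdk8, the Mediator kinase, on chr5:146261139-146261300. Capitals mark the 11 bases centred on the summit. A satellite member lay on chr12:3110000-3110057, and there capitals mark the longest stretch shared with a satellite array on chromosome 9. The chromosome 2 sequence, read on the opposite strand, matched a part of the Cdk8 sequence at 95.2% identity.
Rn18s-rs5: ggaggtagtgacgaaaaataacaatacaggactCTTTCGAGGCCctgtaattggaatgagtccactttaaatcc
chromosome 2 member: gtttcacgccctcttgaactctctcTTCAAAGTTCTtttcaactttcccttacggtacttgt
Cdk8 intron: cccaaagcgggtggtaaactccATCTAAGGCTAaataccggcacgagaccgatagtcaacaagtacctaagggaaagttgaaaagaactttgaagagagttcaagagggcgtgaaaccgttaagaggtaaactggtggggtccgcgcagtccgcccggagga
satellite member: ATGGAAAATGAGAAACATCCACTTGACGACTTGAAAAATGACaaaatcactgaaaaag

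The strength of a peak was read as the number of reads at its summit, recovered from the authors' deposited fold enrichment and -log10 p. The 368 members had 12 to 85 reads with a median of 17, and 134 of them (36.4%) rested on 12 to 15 reads. Their fold enrichments, which are the authors' own, ran from 10.0 to 74.2 with a median of 15.96. The other distal peaks had the same median of 17 reads and a median fold of 16.4. Of the members, 179 (48.6%) lay above the median reads of all GR peaks, against 1088 of 2405 other distal peaks (45.2%), a difference of 3.40 percentage points that did not pass (two-sided Fisher's exact test, adjusted p = 0.298 over 5 tests). With tandem cover under 30% in place of 50%, 55.2% of members lay above that median, against 45.02% of the others (Fisher's exact adjusted p = 0.0148).

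**Figure D1:**
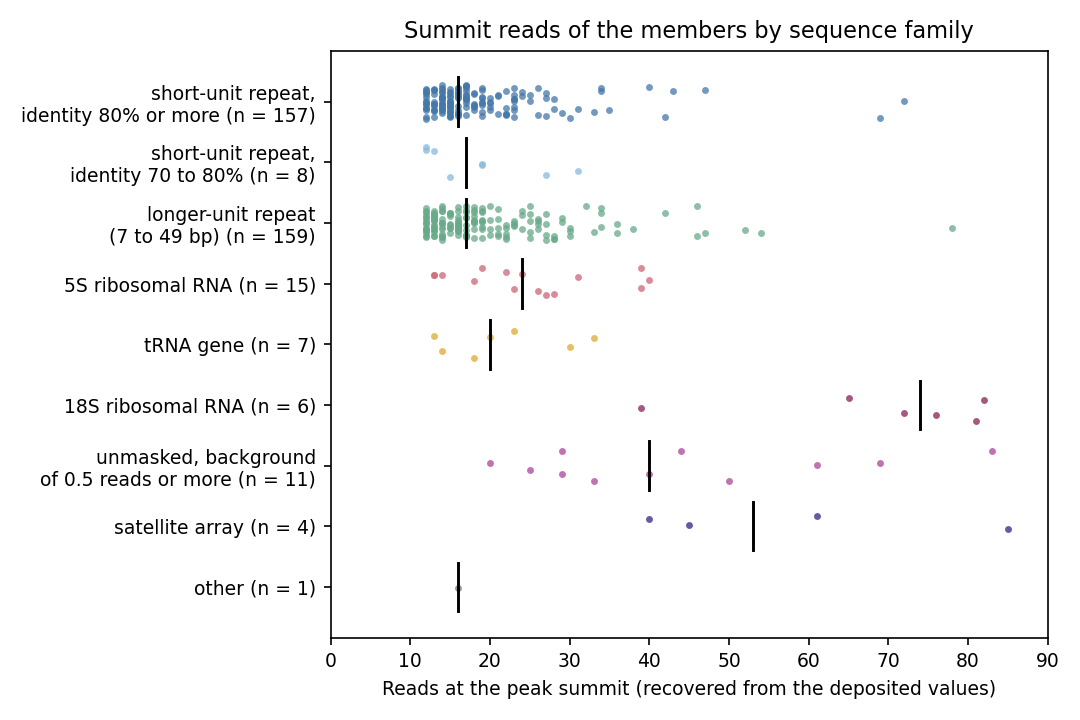
Each point is 1 member, placed by its reads at the summit (x axis) and its sequence family (y axis), and black bars are the family medians. The 18S, unmasked and satellite families have medians of 74, 40 and 53 reads, and the repeats and the 5S and tRNA members have medians of 16 to 24 reads. Over a higher local background a peak needs more reads to be called. The median folds of the 18S, unmasked and satellite families are 15.6, 15.7 and 11.8, against 15.96 for all members.

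The repeats with a unit of up to 49 bp fell into 3 groups by how well each peak matched itself when shifted. In 157 members (42.7%, interval 37.6 to 47.9%) at least 80% of bases matched at a shift of 1 to 6 bp, which marks an interrupted short-unit repeat. In 159 members (43.2%) the limit of 80% was reached only at a shift of 7 to 49 bp. The remaining 8 matched at 70 to 80% at a shift of 1 to 6 bp. Counting every member, 314 of 368 (85.3%) reached 80% at a shift of 7 to 49 bp, most often at shifts of 8 bp (44 members), 16 bp (32), 24 bp (28) and 10 bp (28). Many short-unit repeats also match themselves at multiples of their unit, so both measures often hold for the same peak.

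The same measures were taken in windows of the same width 1000 bp to the right of each summit. Only 4 of 368 windows (1.09%) reached 70% at a shift of 1 to 6 bp or 80% at a shift of 7 to 49 bp, against 324 peaks (88.04%). The median best identity at a shift of 1 to 6 bp was 78.6% in the peaks and 34.9% in the windows. The peaks had a median width of 69 bp, and in most of them the repeat did not reach the window 1000 bp away. The 43 members on RNA gene, satellite and unmasked sequence reached at most 54.0% identity at a shift of 7 to 49 bp, and the other 325 members reached at least 66.7%, with no member between.

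**Figure D2:**
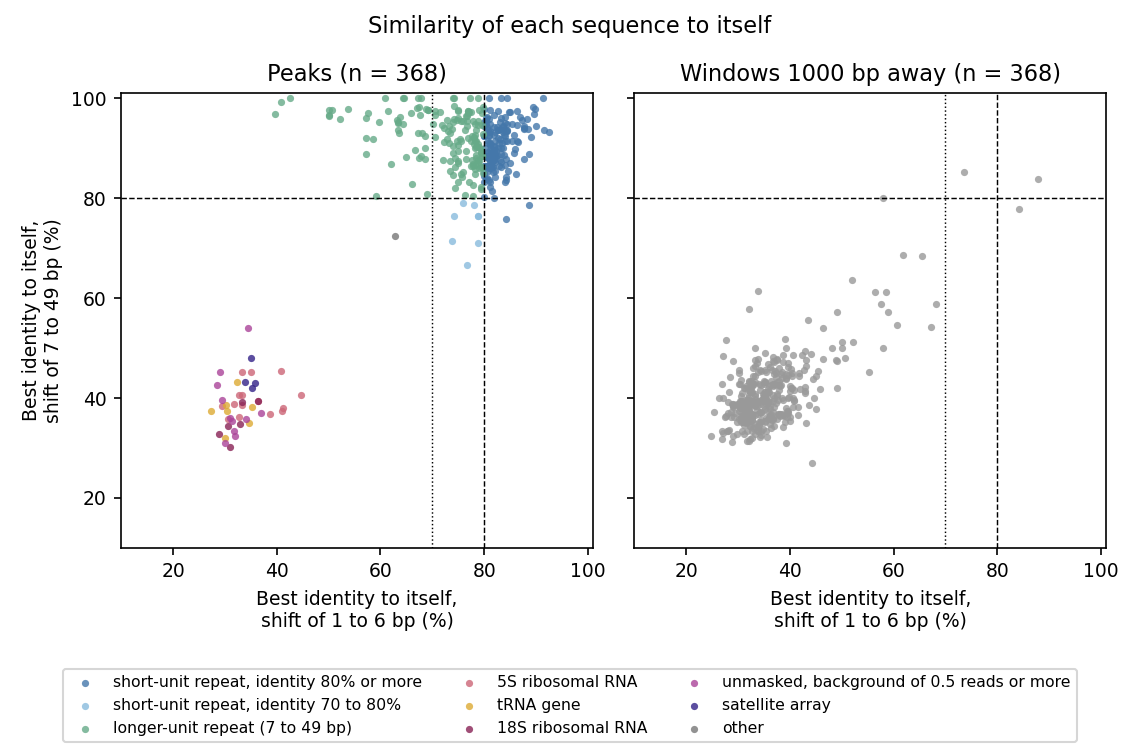
Each point is a peak (left) or the window of the same width 1000 bp away (right), placed by the best self-identity over shifts of 1 to 6 bp (x axis) and of 7 to 49 bp (y axis), in percent. Dashed and dotted lines are the limits of 80% and 70%. Of the peaks 324 of 368 lie beyond a limit, and of the windows 4 of 368.

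The repeats were rich in sequence that mixes GA and CA steps. GACAGA, read on either strand, was in 201 members (54.6%), in 30 of the windows 1000 bp away (8.15%) and in 1046 of the other distal peaks (43.5%). AGAGAG was in 209 members (56.8%), 35 windows (9.51%) and 1503 other distal peaks (62.5%). The words shown are among the most frequent in the members, chosen after their counts were seen. Among the 246 members with any tract counted by the rule, AG was the dominant unit in 126 (51.2%), ACAG in 26 (10.6%), AC in 25 (10.2%), ACAGAG in 17 (6.91%) and AACCCT, the unit of chromosome ends, in 9 (3.66%). No tract at all was found in 122 members (33.2%). In the other distal peaks, which all had a tract, AG was the dominant unit in 55.0%, AC in 21.5% and ACAG in 5.70%. One strand held at least 90% purines in 66 members (17.9%), in 2 of the windows (0.543%) and in 1098 of the other distal peaks (45.7%).

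The 20 members of highest fold enrichment, from 74.2 to 32.9, held 18 of these repeats and 2 members on 5S sequence. The order by reads differed, as the highest count was 85 reads, in a satellite member at 15.1-fold. The Agbl1 member had 78 reads at its summit over a background of 0.0652 reads, which gives 74.2-fold. The Adcy1 member had 69 reads (61.9-fold), the one nearest to Rybp 72 reads (61.1-fold) and the Slc7a15 member 54 reads (51.6-fold). The members nearest to Steap3, Fam181b, Med13l and A830018L16Rik had 52, 47, 47 and 46 reads, at 49.1, 44.9, 44.7 and 44.1-fold. Those nearest to Cd180, a receptor of B cells, Pcdh18, a protocadherin, and Psmb7, a proteasome subunit, reached 43.2, 41.3 and 38.0-fold. The member nearest to Sirpa, the receptor for CD47, also reached 38.0-fold. The 5S members were n-R5s71 at 38.5-fold and the copy on chromosome 13, nearest to Rmi1, at 37.6-fold. The remaining 6 were nearest to Cntnap5b, Zfp236, Il21, a cytokine of T cells, Dach1, Inpp4b, a phosphoinositide phosphatase, and Insig2, a regulator of sterol synthesis, at 32.9 to 36.6-fold. Of the 20 members 5 lay in introns, 6 lay within 20 kb of a start and 8 lay over 100 kb away.

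Some members were nevertheless made largely of 31-base words that occur once in the assembled chromosomes. Every 31-base word of the GR peaks was counted on both strands of the genome. In 82 members (22.3%, exact interval 18.1 to 26.9%) at least 50% of the words occurred once. Only exact copies in the assembly were counted, so diverged or unassembled copies were not. The 18S members, for example, had a median of 71.3% of words that occurred once. Of the 82 members 49 lay on no RNA gene, satellite or interrupted short-unit repeat. Among the 49, 9 had a local background of at least 0.5 reads. By fold enrichment the highest of the 49 were the Slc7a15 member, then those nearest to A830018L16Rik (44.1-fold) and Rhox9, a homeobox gene of the reproductive tract (30.98-fold). They were followed by a member in an intron of Sgcd, the muscle membrane protein delta-sarcoglycan (30.1-fold), and the one nearest to Bcor, a BCL6 corepressor (29.1-fold). All 5 were longer-unit repeats. The median copy number of a peak's words, taken over the 368 members, was 5, against 11 over the other distal peaks.

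All 15 GR peaks on 5S ribosomal RNA sequence belonged to the set, and none was near a protein-coding start. They had 13 to 40 reads with a median of 24 and matched Rn5s at 94.4 to 98.5% identity. The strongest were n-R5s71 on chromosome 11 with 40 reads (38.5-fold), the unannotated copy on chromosome 13 with 39 reads (37.6-fold), Gm25675 on chromosome 12 with 39 reads (30.2-fold) and n-R5s88 in an intron of Ephb1 with 31 reads (29.4-fold). n-R5s210 had 28 reads, n-R5s46 27, n-R5s1 on chromosome Y 26, n-R5s204 24, n-R5s194 23 and n-R5s211 22. The lowest were n-R5s156 with 19 reads, n-R5s50 with 18, n-R5s33 with 14, and n-R5s115 and n-R5s2 with 13 each. Of the 303 annotated 5S loci 14 (4.62%) overlapped a GR peak. In the array around Rn5s on chromosome 8, the main 5S array of the mouse, 1 of 51 annotated loci overlapped a peak (1.96%, exact interval 0.0496 to 10.4%), against 13 of 252 loci elsewhere (5.16%, 2.78 to 8.66%). How the authors treated reads with several matches is not given in the sources used here, and 5S copies share most of their sequence.

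The place of the 5S summits within the gene was also read. Projected onto the 121 bp of Rn5s, they lay at bases 50 to 91 with a median of 69, counted from 1 at the 5′ end of the transcribed strand. The internal promoter of 5S genes lies in the middle to 3′ part of the transcribed sequence, a fact of background that was not tested here. The peaks were 54 to 83 bp wide, which limits where a summit can lie in a gene of that length.

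Of the 13 GR peaks on tRNA genes 7 belonged to the set, and the other 6 lay within 5000 bp of a protein-coding start. n-TIaat3, an isoleucine tRNA gene, had 33 reads (28.4-fold). The aspartate tRNA gene n-TDgtc16 had 30 reads (26.96-fold), and the methionine tRNA genes n-TMcat3 and n-TMcat2 had 23 (21.2-fold) and 20 (19.7-fold). n-TScga3, the serine tRNA gene 10.4 kb from a start of Per1, had 18 reads (16.8-fold). The phenylalanine tRNA gene n-TFgaa1 had 14 reads and the valine tRNA gene n-TVcac5 had 13. Summits lay at bases 32 to 55 of genes that are 72 to 82 bp long. Of the 403 annotated tRNA genes 13 (3.23%, exact interval 1.73 to 5.45%) overlapped any GR peak.

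18S ribosomal RNA, the RNA of the small ribosomal subunit, held 6 members with 39 to 82 reads. Of these 5 lay in Rn18s-rs5 on chromosome 17 (39846354 to 39848202), with summits at bases 411, 550, 988, 1258 and 1705 and 39, 72, 65, 82 and 76 reads. The other lay on chr6:3201455-3201542, matched the 18S sequence at 96.6% identity and had 81 reads. Their folds were only 10.7 to 19.5, over a local background of 2.74 to 4.93 reads. The 5 peaks of chromosome 17 lie within 1 locus and are not independent.

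**Figure D3:**
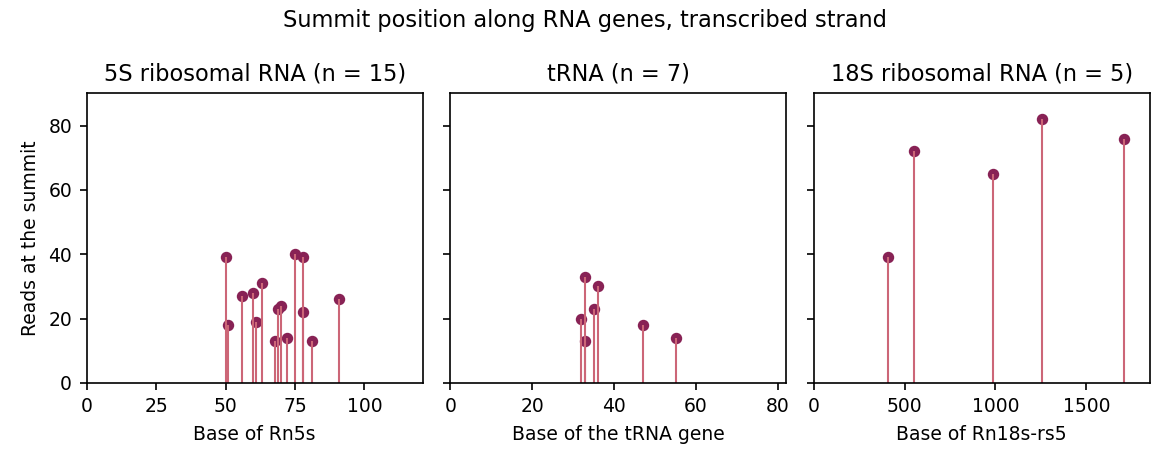
Reads at the summit (y axis) against the summit's place in the RNA gene, counted from the 5′ end of the transcribed strand (x axis, bases), for the members on 5S ribosomal RNA, tRNA genes and Rn18s-rs5. Each point is 1 member. The 5S summits lie at bases 50 to 91 of Rn5s, the tRNA summits at bases 32 to 55, and the 5 summits in Rn18s-rs5 at bases 411 to 1705.

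A small group of members had a high local background. It was at least 0.5 reads in 22 members and in 9 of the 2405 other distal peaks. Over all 3087 GR peaks it was that high in 61, of which only 31 were distal, so some of the 314 peaks near starts shared this trait. The highest background of any GR peak was 5.80 reads, against 4.93 among the members. The 22 were all 6 members on 18S sequence, all 4 on satellite sequence, the 11 unmasked members, which were grouped by that background, and 1 longer-unit repeat. The 11 had backgrounds of 0.587 to 3.13 reads and 20 to 83 reads at their summits. All 11 matched a genome stretch that at least 1 other of them also matched, at 21 places in all. The stretch on chr14:19278084-19279344 was matched by 5 of them at 77.3 to 90.7% identity, and those on chr17:22876221-22878190 and chr9:3257729-3258993 by 4 each. They lay on 9 chromosomes and shared sequence with each other. The members with most reads were those nearest to Axin2, a Wnt pathway scaffold (83 reads), and in an exon of Lars2, the mitochondrial leucyl-tRNA synthetase (69 reads). A full ribosomal RNA repeat unit was not used here, so the match of these 11 to its other parts was not tested.

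**Figure D4:**
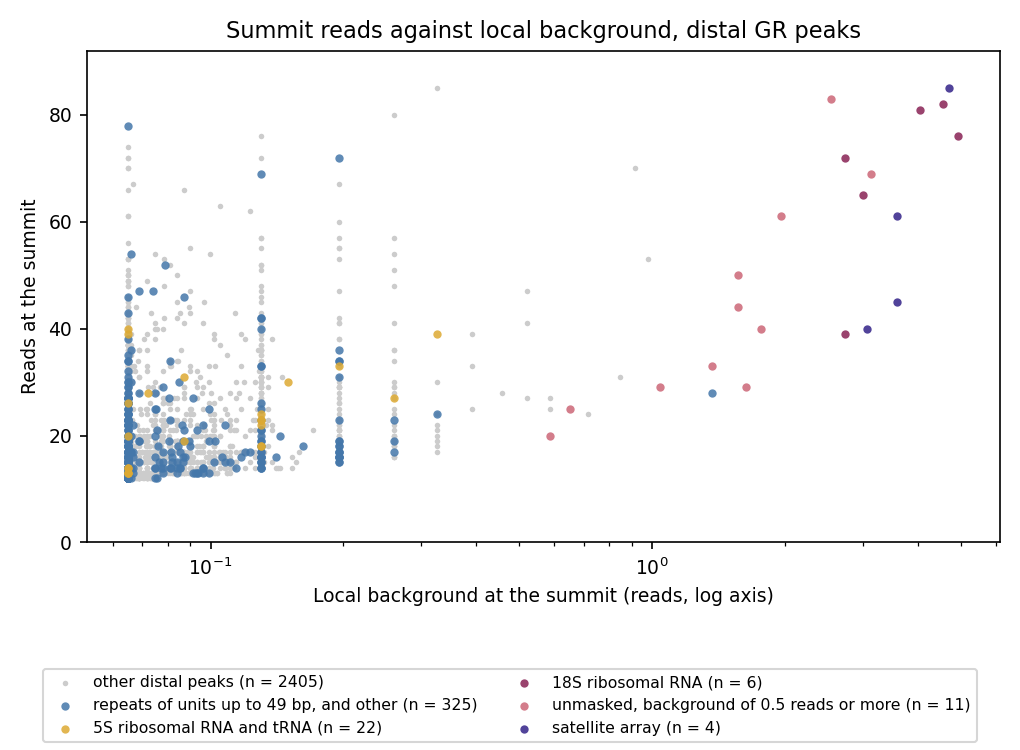
Reads at the summit (y axis) against the local background in reads (x axis, log scale) for the 2405 other distal GR peaks (grey) and the 368 members by family. The 21 members on 18S, satellite and unmasked sequence lie at backgrounds of 0.587 reads and above, and the highest background among the other distal peaks is 0.978 reads.

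Over the whole set the background differed less. It lay above the median of all GR peaks in 176 members (47.8%) and in 1014 other distal peaks (42.2%), a difference of 5.66 percentage points that did not pass (Fisher's exact test, p = 0.0419, adjusted p = 0.105). With tandem cover under 30% the shares were 54.6% and 42.1% (Fisher's exact adjusted p = 0.00282). The 18S, satellite and unmasked families, all above that median, had a median tandem cover of 0.0%. They thus made up more of the members under this limit. Without the 5S, 18S, satellite and unmasked members, a setting chosen after the values were seen, the difference was 1.81 points (Fisher's exact adjusted p = 0.851).

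Satellite arrays are long blocks of repeated DNA near centromeres. Of the 34 GR peaks that matched the arrays on chromosomes 9 and 2 only 4 belonged to the set, and the other 30 lay within 5000 bp of protein-coding starts annotated there. The 4 lay on chromosome 12 (45 reads, 10.0-fold), in an intron of Chl1, a neural adhesion molecule (40 reads, 10.1-fold), on chromosome 9 nearest to Rpusd4 (85 reads, 15.1-fold) and on chromosome X nearest to Pak3, a kinase (61 reads, 13.5-fold). They matched the arrays at 94.4 to 98.2% identity over at least 98.3% of their length. Members in introns of Dgkg (16.9-fold) and Snx2 (13.1-fold) also matched themselves at 70% at a shift of 50 to 400 bp. They had 97.5% and 96.6% identity at shifts of 14 and 18 bp and were counted with the longer-unit repeats.

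H3K27me3 is the mark that Polycomb complexes place on silenced chromatin. Of all 3087 GR peaks 19 (0.615%) overlapped an H3K27me3 region of WT muscle, and 6 of them belonged to the set. These were the satellite members on chromosomes 12 and 9 and in Chl1, 2 of the 18S members in Rn18s-rs5, and the Lars2 exon member. None of the 324 tandem repeat members overlapped a region, and neither did the 5S and tRNA members. The share was 1.63% of members (exact interval 0.601 to 3.51%) against 13 of 2719 other GR peaks (0.478%, 0.255 to 0.816%), a difference of 1.15 points that did not pass (two-sided Fisher's exact test, p = 0.0193, adjusted p = 0.0964). With peaks within 10000 bp counted as 1 locus the shares were 1.11% and 0.191% (Fisher's exact adjusted p = 0.0811). Peaks share 1 library and some share a locus, so p describes these peaks and not the condition. With tandem cover under 30% the shares were 3.28% and 0.448% (Fisher's exact adjusted p = 0.00282). All 6 overlapping members had a tandem cover of at most 3.88%. This limit therefore kept all of them in a smaller set, and a larger share was fixed in advance. All 6 overlapping members were in the ribosomal RNA, satellite and unmasked families. A setting without these families, chosen after the values were seen, therefore left no overlapping member by construction. The families were removed from the members only and not from the other GR peaks. The difference of -0.478 points (Fisher's exact adjusted p = 0.851) thus cannot show a direction. The regions overlapped had fold enrichments of only 2.09 to 4.90 in the authors' list. All 6 overlapping members had a local background of at least 3.06 reads. The part of that background in the overlap was not tested.

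The members were spread widely between genes. Summits lay in introns of protein-coding genes in 111 members, in exons in 3 and between genes in 254. Of the intergenic members 43 lay in other annotated genes, such as long non-coding RNA genes. The share inside protein-coding genes was 30.98% (exact interval 26.3 to 36.0%), against 851 of 2405 other distal peaks (35.4%, 33.5 to 37.3%; Fisher's exact adjusted p = 0.167). Of the known bases of the genome 39.2% lay inside such genes. That genome share includes bases within 5000 bp of a start, where no member can lie, so it is not a like comparison. The distance to the nearest start ran from 5.03 to 2241 kb with a median of 84.8 kb, and it was at least 100 kb in 159 members (43.2%). The other distal peaks had a median of 76.6 kb and 44.9% at 100 kb or more. Peaks within 10000 bp of each other were rare, as the 368 members formed 363 loci.

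**Figure D5:**
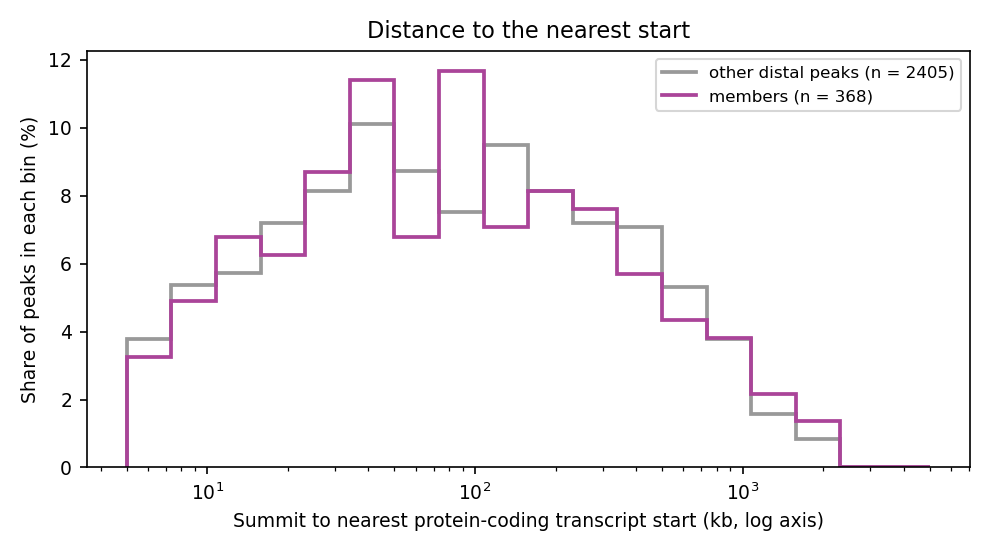
Share of peaks in each distance bin (y axis, percent) against the distance from the summit to the nearest protein-coding transcript start (x axis, kb, log scale) for the 368 members and the 2405 other distal peaks. Both outlines overlap over the whole range, with medians of 84.8 and 76.6 kb.

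Chromosomes X and Y held 14 and 2 members, together 4.35% (exact interval 2.51 to 6.96%), against 4.16% of the other distal peaks (Fisher's exact adjusted p = 0.889). Per 100 Mb of known sequence this was 8.56 members on X and 2.27 on Y. On the autosomes the density ran from 5.92 on chromosome 4, with 9 members, to 22.3 on chromosome 19, with 13 members.

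The gene lists had 5 genes with a member nearby. Within 100 kb of a start, 506 of all 21864 protein-coding genes (2.31%) had a member. Of 34 glucocorticoid-induced genes 2 did (5.88%): Per1, a circadian repressor, and Lcn2, which encodes lipocalin 2, 80.1 kb from a short-unit repeat at 13.4-fold. Of 33 contractile and calcium handling genes 2 did (6.06%): Tcap, the titin cap of the sarcomere, 70.4 kb from a member at 16.6-fold, and Ckm, the muscle creatine kinase, 91.9 kb from a member at 16.4-fold. Of 18 myogenic regulators 1 did (5.56%), with a short-unit repeat 43.7 kb from a start of Mef2c at 14.2-fold. None of the 25 genes of tRNA and ribosomal RNA transcription and none of the 25 markers of other cell types did. The start nearest to the member was that of Hes7 for Per1, Slc25a25 for Lcn2, Neurod2 for Tcap and Fosb for Ckm. Only the Mef2c member was nearest to the listed gene itself. The shares rest on 1 or 2 genes a list, and no test was made on them. The nearest member to Fkbp5, a receptor co-chaperone, lay 897 kb from a start, and that to Fbxo32, a ubiquitin ligase of muscle atrophy, 906 kb. For Tsc22d3, an anti-inflammatory leucine zipper protein, Nr3c1 itself, Trim63, another atrophy ligase, and Myod1, the myogenic master regulator, the distance was 2506 to 5937 kb. For Acta1, the skeletal muscle actin, it was 330.4 kb.

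No member held the full response element in the 200 bp around its summit, on either strand, with all 12 fixed bases matched. A count of 0 in 368 allows a share of up to 0.815%. The element was in 0.00453% of all 200 bp windows of the genome, and with 1 mismatch allowed in 0.130%, where the count in members was again 0. Both genome shares lie below that limit, so a difference was not detectable with 368 members. Its repeated word AGAACA was in 30 members (8.15%, exact interval 5.57 to 11.4%), in 57 windows 1000 bp away (15.5%) and in 18.6% of genome windows. The loose core ACANNNTGT, which shares bases with that word, was in 10 members (2.72%), 29 windows (7.88%) and 6.57% of genome windows. The myogenic E-box CAGCTG was in 5, 29 and 7.14%. TGANTCA, the AP-1 site, was in 7, 30 and 5.94%, and CCAAT in 31, 93 and 29.6%. Among the 2405 other distal peaks AGAACA was in 226 (9.4%), ACANNNTGT in 68 (2.83%) and CAGCTG in 38 (1.58%). TGANTCA was in 48 of them and CCAAT in 213 (8.86%). The members and the other distal peaks thus had similar shares of these words, so the low counts were not particular to the members. GGTTCGA was in 5 members, 1 window, 0 of the other distal peaks and 0.264% of genome windows. The 5 were 3 tRNA and 2 18S members. A match is a description of letters and not of binding.

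The values on either side of the limits of the rule were as follows. Just inside 50% lay a member nearest to Tbx3 (49.9% covered, 18.4-fold), 1 in Nlrp9b (49.7%, 15.96-fold) and 1 in Esr1 (49.7%, 13.9-fold). The 3 distal peaks just outside were covered to exactly 50% and reached 14.97, 18.8 and 35.7-fold. By distance, the nearest members lay 5030 bp from Slc33a1 (24.4-fold), 5436 bp from Rock1 (14.1-fold) and 5444 bp from Esr1. The peaks just outside lay 4932 bp from Hk1 (15.9-fold), 4829 bp from Mycn (18.6-fold) and, on a tRNA gene, 4691 bp from Atp5h (17.1-fold).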

How the data were processed

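Peak lists of 1 GR library (GR(i)skm-/- muscle) and 1 H3K27me3 library (WT muscle) were used, and 1 named member and some sequences are not reported here. Per the submitters' processing notes, the authors used bcl2fastq 2.17.1.14, Bowtie 1.0.0 and MACS2 (version not given here) with mm10. The authors' deposited columns are a score, a ratio (fold enrichment over local background, 1 read added to both), -log10 p and -log10 q, and every -log10 q of the GR list is at least 20. Library totals are unknown.

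Summit and background reads were solved from fold and -log10 p under a Poisson model (largest error 5.5e-05). Peaks were placed on GRCm38 with GENCODE vM21 and RefSeq tRNA and 5S genes. RNA and satellite families came from blastn 2.17.0 (at least 80% identity over 50% of the peak), repeats from self-identity. All 31-mers of the GR peaks were counted genome-wide: in 82 members (22.3%) at least 50% occurred once. Tests were two-sided Fisher's exact tests with Benjamini-Hochberg adjustment over 5. On simulated data 0 of 500 random sequences were called repeats, 500 of 500 planted ones were, and 21 of 500 tests with no difference gave p under 0.05. Genes named were the 20 members of highest fold enrichment and the 5 highest per class. Added to these were all on RNA genes, all overlapping H3K27me3, list genes within 100 kb, and members nearest the limits. Members and lists were chosen with earlier results of these data known, and the longer-unit and unmasked families after seeing the sequences. Software was scipy 1.17.1, numpy 2.4.6, pandas 2.3.3 and matplotlib 3.10.9 in Python 3.11.15.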

Additional observations from a re-analysis of the deposited data

How the results depend on the processing

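Of 36 alternatives 23 kept the direction and side of the threshold, or a count within 1.5 times. The number of members depended most on the rule: 183 with tandem cover under 30%, 1387 under 80%, 999 with tracts of at least 12 bp, and 191 with a -log10 q of at least 30. It was 304 where tracts were read beyond the peak ends, a setting chosen after seeing the data. Interrupted short-unit repeats numbered 275 at 70% identity and 4 at 90%, satellite-like members 10 at 60%, and members with single-copy 31-mers 33 where 80% of 31-mers had to be single and 169 at 20%. With tandem cover under 30%, the differences in H3K27me3 overlap (2.83 points), summit reads (10.2 points) and local background (12.6 points) passed the threshold. The comparison group then also held the peaks covered to 30 to 50%. Without the ribosomal RNA, satellite and unmasked members, chosen after seeing the data, the difference in H3K27me3 overlap was -0.478 points. Its sign was fixed in advance, since every overlapping member was removed and the other GR peaks were left unchanged. No paired analysis was possible because each group had 1 library. Depth is unknown, and at 12 to 15 reads a peak's height is imprecise.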
